A study of Mus musculus with 6 samples.

Results

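The Id, Hes and Hey genes are helix-loop-helix genes, and most of their products hold back differentiation. Followed here were 9 of these genes: Id1, Id2, Id3, Id4, Hes1, Hes5, Hes6, Hey1 and Hey2. They were taken by gene symbol from the 23038 genes quantified, and 8 of the 9 passed the filter on low counts that left 12505 genes for testing. Transcripts were measured by mRNA-seq in mouse oligodendrocyte precursor cells (mOPCs), the glial precursors of the myelinating oligodendrocytes. The mOPCs were purified by immunopanning from embryos at E14.5, and no strain or genetic alteration is named for either group. 3 libraries came from cells that received control siRNA (siNC) and 3 from cells that received siRNA for Qk (siQk), with collection at 72 h after transfection in both groups. The labels mention 3 different siRNAs for Qk without saying which library received which, and they call the 3 libraries of each group biological replicates. Qk encodes the Quaking proteins, STAR-family RNA-binding proteins that act on splicing, stability and translation in oligodendrocytes.

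Helix-loop-helix proteins work as dimers. The Id proteins lack the basic region that contacts DNA, so that an Id protein bound to an E protein (Tcf3, Tcf4 or Tcf12) keeps it from pairing with factors such as Olig2 on DNA. BMP signalling is a well-known inducer of Id genes. Hes and Hey proteins do bind DNA and repress genes, Hes proteins with the Groucho corepressors (Tle genes). Hes1, Hes5, Hey1 and Hey2 are classical targets of Notch signalling through the factor Rbpj. Hes6 is the exception, since it is known to counteract Hes1 rather than to mediate Notch. In the oligodendrocyte lineage, Id2, Id4 and Hes5 are known for delaying the step from the precursor to the myelinating cell.

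The depth was 58166490 to 141045937 tags per library, where a tag number is the authors' estimated count for a gene. RPKM is the tag number per kilobase of exon, scaled to the total tags of the library, and levels of different genes are compared here on that scale only. Log2 fold changes are siQk over siNC from edgeR's quasi-likelihood test on the tag numbers with TMM scaling, and calls needed P below 0.01 together with an FDR below 0.1 (Benjamini-Hochberg, over all genes tested). By this rule 3879 of the 12505 genes (31.0%) were called, 1730 higher in siQk (13.8%) and 2149 lower (17.2%). With library totals in place of TMM, 2989 were higher and 1365 lower, with a median over all genes of 0.16 (log2) in place of 0.01. Qk itself, the targeted gene, was at 209, 206 and 163 RPKM in the siNC libraries and at 51.3, 76.6 and 36.2 RPKM in the siQk libraries, which checks the labels. In bulk RNA, fewer cells of a type and less RNA per cell cannot be told apart, and this holds for every level below.

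One of the 8 tested members was called, Hes5, which rose in siQk. That is 12.5% of the members tested, beside the 31.0% called among all genes. The remaining 7 tested members (Id2, Id3, Id4, Hes1, Hes6, Hey1 and Hey2) were not called, and Id1 was too low to be tested. Across the tested members the median log2 fold change was 0.03, against 0.01 over all genes. The RPKM ranges of the groups did not overlap for 3 of the 8 tested members (Id3, Id4 and Hes5), while 58.3% of all genes tested had ranges apart. After division by the TMM factors, the ranges of 2 members (Hes1 and Hes5) were apart, beside 54.4% of all genes tested.

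Hes5, a repressor that Notch switches on in neural and glial progenitors, lies at chr4:154960923-154962371 on the plus strand of mm10. It was at 22.0, 27.2 and 19.7 RPKM in the siNC libraries and at 94.7, 91.9 and 98.6 RPKM in the siQk libraries. Every siQk library was above every siNC library by a wide margin, and the libraries of a group lay close together. The means were 23.0 ± 3.85 RPKM in siNC and 95.1 ± 3.40 RPKM in siQk (SD, n = 3 each). The log2 fold change was 1.90 with a standard error of 0.13 and an FDR of 0.000446 by edgeR, a fold of 3.73 with a 95% interval from 3.02 to 4.61. Hes5 stood at rank 37 from the highest fold change among the 12505 genes. The tag numbers behind these levels ran from 1627 to 17007 per library. An annotated transcript, Gm20421, overlaps Hes5 on the opposite strand, and since the library kit does not mark strand, reads of both genes cannot be told apart.

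**Figure D1:**
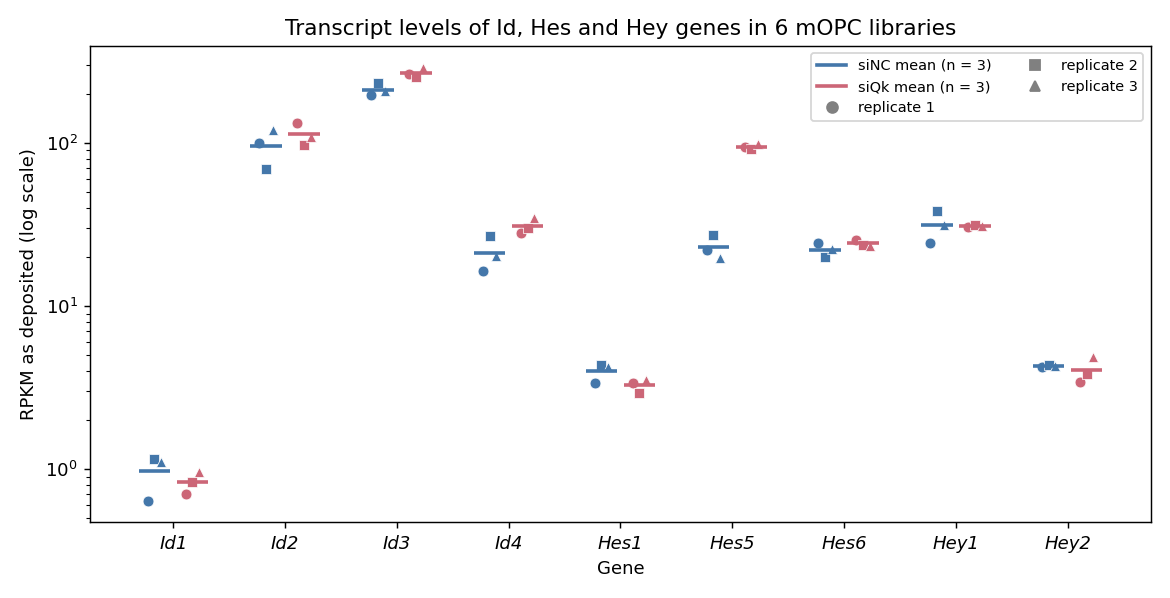
RPKM of the 9 Id, Hes and Hey genes on a log axis in each of the 3 siNC and 3 siQk libraries, with points for libraries and bars for group means. Hes5 moves from 19.7 to 27.2 RPKM in siNC to 91.9 to 98.6 RPKM in siQk, whereas for most other members the points of the groups lie side by side or overlap.

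Promoter sequence is shown for the members whose window holds the core letters that Rbpj is known to bind, because Notch acts on Hes and Hey genes through that factor. Windows of 250 bases ending just before the transcription start were taken from RefSeq (GRCm38.p6, the same assembly as mm10). Of the 9 members 6 had an entry, with 7 windows in all. Id1, Hes1 and Hey1 had no entry, so their promoters were not searched. The letters searched were TGGGAA on either strand, so that the opposite strand reads TTCCCA, and both are in capitals. Of 32851 such windows in the genome 21.6% hold these letters and 2.77% hold them at 2 or more places.

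The windows of Hes5 (chr4:154960673-154960922, plus strand), Hey2 (chr10:30842784-30843033, minus strand) and Id4 (chr13:48260866-48261115, plus strand) read as follows, 5′ to 3′.
Hes5: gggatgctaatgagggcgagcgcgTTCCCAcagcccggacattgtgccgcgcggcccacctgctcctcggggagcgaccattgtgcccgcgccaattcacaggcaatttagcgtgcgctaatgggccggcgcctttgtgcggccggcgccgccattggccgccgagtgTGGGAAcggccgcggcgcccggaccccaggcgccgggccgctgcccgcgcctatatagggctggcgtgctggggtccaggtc
Hey2: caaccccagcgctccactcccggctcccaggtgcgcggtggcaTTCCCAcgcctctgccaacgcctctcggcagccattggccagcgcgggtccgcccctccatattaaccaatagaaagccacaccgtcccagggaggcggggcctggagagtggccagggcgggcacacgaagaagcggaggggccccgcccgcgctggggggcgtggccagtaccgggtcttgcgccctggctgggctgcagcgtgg
Id4: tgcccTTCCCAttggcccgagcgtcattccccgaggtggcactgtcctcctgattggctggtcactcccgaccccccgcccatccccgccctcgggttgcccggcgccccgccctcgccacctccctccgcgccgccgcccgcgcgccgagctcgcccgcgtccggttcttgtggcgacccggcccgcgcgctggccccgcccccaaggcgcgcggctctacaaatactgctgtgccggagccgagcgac

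The Hes5 window held the letters at 2 places, 82 and 226 bases before the start, in opposite orientation and 144 bases apart. Hey2 held them once, 207 bases before the start, and Id4 once, 245 bases before it. The windows of Hes6, Id2 and Id3 held none. A match of letters is a description of the window and not a measured binding site. Hes5 rose in siQk, while Hey2 and Id4 were not called, as the next values show. A part of these letters in the differences was not tested, and Hes1 and Hey1 had no window to compare.

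Hes1, the other main Notch-driven Hes repressor (chr16:30064384-30067796), had 3.35, 4.36 and 4.26 RPKM in siNC and 3.38, 2.93 and 3.52 RPKM in siQk. The first siNC library lay inside the siQk range, and the other siNC libraries lay above it. The means were 3.99 ± 0.554 RPKM and 3.28 ± 0.308 RPKM (SD, n = 3 each), and the log2 fold change was -0.43 (SE 0.14, 95% interval -0.75 to -0.11). With an unadjusted P of 0.0164 and an FDR of 0.0459 by edgeR, Hes1 passed the FDR limit but missed the limit on P, so it was not called. On TMM-scaled RPKM the groups did not overlap, with 3.73 to 4.53 in siNC and 2.75 to 3.38 in siQk.

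Hey1 and Hey2 encode repressors related to Hes that Notch induces, best known from the heart and vessels. Hey1 (chr3:8663359-8667256, minus strand) was at 24.4, 38.2 and 31.3 RPKM in siNC and at 30.5, 31.3 and 31.2 RPKM in siQk. The siQk libraries fell inside the wide siNC range, and the log2 fold change was -0.16 (SE 0.13, 95% interval -0.48 to 0.15, FDR 0.368 by edgeR). Hey2 (chr10:30832359-30842801, minus strand) was at 4.21, 4.34 and 4.27 RPKM in siNC and at 3.45, 3.84 and 4.90 RPKM in siQk. Here the siNC libraries were nearly equal and sat within the siQk range, and the log2 fold change was -0.22 (SE 0.15, 95% interval -0.57 to 0.12, FDR 0.264 by edgeR).

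Hes6, the member that counteracts Hes1 (chr1:91411483-91414038, minus strand), had 24.3, 20.0 and 22.3 RPKM in siNC and 25.5, 23.7 and 23.5 RPKM in siQk. The ranges overlapped, and the log2 fold change was -0.03 (SE 0.11, 95% interval -0.29 to 0.23, FDR 0.855 by edgeR). These intervals bound what the 3 libraries per group could show. For Hes6 they leave room for a fold between 0.820 and 1.17, and for Hey1 between 0.719 and 1.11.

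**Figure D2:**
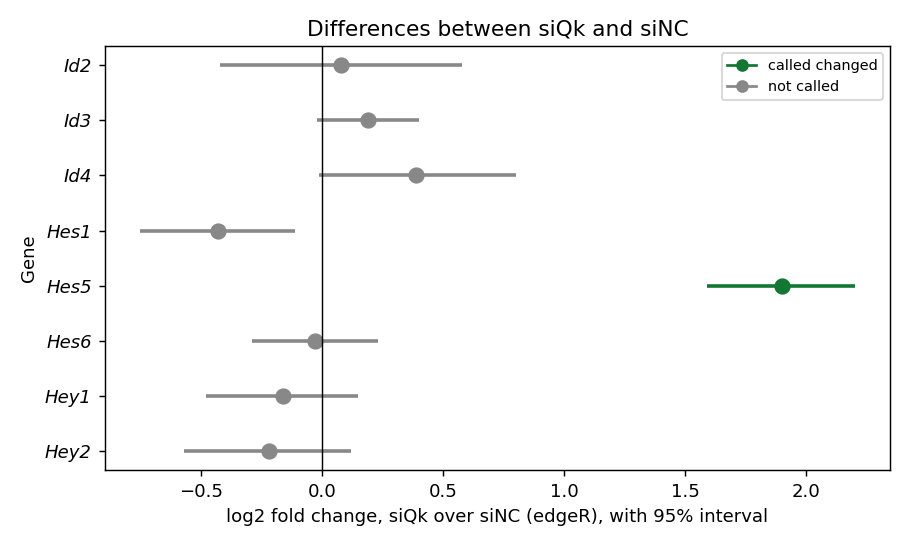
Log2 fold change of siQk over siNC (x axis, edgeR) with its 95% interval for the 8 members tested. The interval of Hes5 runs from 1.59 to 2.20, that of Hes1 from -0.75 to -0.11, and those of the other 6 members include 0.

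Hes5 made up the greater part of the Hes and Hey transcripts in siQk and a minor part in siNC. The summed RPKM of Hes1, Hes5, Hes6, Hey1 and Hey2 was 78.3, 94.1 and 81.8 in the siNC libraries and 157.5, 153.7 and 161.8 in the siQk libraries. Hes5 made up 28.1%, 28.9% and 24.1% of that sum in siNC and 60.1%, 59.8% and 61.0% in siQk. The groups were far apart, and the siQk shares had the smaller spread (27.0 ± 2.58% and 60.3 ± 0.612%, SD, n = 3 each). The shares of the other members were lower in every siQk library, from 36.7% to 19.7% on average for Hey1 and from 26.5% to 15.4% for Hes6. Hey2 went from 5.07% to 2.57% and Hes1 from 4.71% to 2.08%, as shares of a sum in which Hes5 was higher.

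Ratios within a library do not depend on how libraries are scaled to each other. The ratio of Hes5 to Hes1 RPKM was 6.55, 6.24 and 4.63 in siNC and 28.1, 31.3 and 28.0 in siQk. That of Hes5 to Hes6 was 1.05 ± 0.271 in siNC and 3.93 ± 0.244 in siQk, and that of Hes5 to Hey1 was 0.747 ± 0.139 and 3.07 ± 0.119 (SD, n = 3 each). In each of these ratios all siQk libraries were above all siNC libraries. An exact two-sided permutation test gave p = 0.1 for each ratio and for the Hes5 share, the smallest value that 3 libraries against 3 allow.

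**Figure D3:**
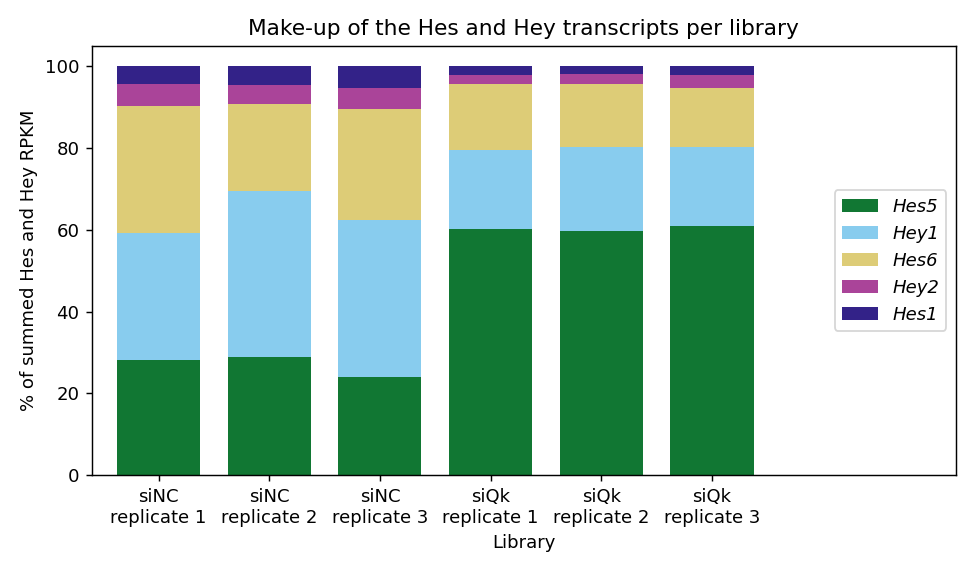
Share of each gene in the summed RPKM of the Hes and Hey genes, in percent, with a stacked bar for each library. The Hes5 part grows from 24.1% to 28.9% in siNC to 59.8% to 61.0% in siQk.

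None of the Id genes tested was called, and their summed level was dominated by Id3 and Id2 in both groups. Id3 (chr4:136143497-136145755), an Id gene found in many dividing progenitors, was at 196, 233 and 208 RPKM in siNC and at 263, 253 and 290.0 RPKM in siQk. The siQk libraries were all above the siNC libraries in RPKM, but after division by the TMM factors the ranges overlapped (210.6 to 242.1 against 237.4 to 277.8). The log2 fold change was 0.19 (SE 0.09, 95% interval -0.02 to 0.40), with an unadjusted P of 0.0654 and an FDR of 0.125 by edgeR.

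Id4 (chr13:48261228-48266026) is known for its part in the timing of oligodendrocyte differentiation. It was at 16.5, 27.0 and 20.4 RPKM in siNC and at 28.0, 30.3 and 34.6 RPKM in siQk. All siQk libraries were above all siNC libraries, the second siNC library just below the lowest of them, and on TMM-scaled RPKM the ranges overlapped. The log2 fold change was 0.39 (SE 0.17, 95% interval -0.01 to 0.80), with an unadjusted P of 0.0530 and an FDR of 0.107 by edgeR, so that both limits were missed. Without the second siNC library it was 0.59 and Id4 was called. Transcripts annotated on the minus strand (A330033J07Rik and Gm49291) overlap Id4, and their reads cannot be told apart from those of Id4 without strand.

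Id2 (chr12:25093799-25097140, minus strand), which holds precursors in the cell cycle, was at 99.3, 68.8 and 120.2 RPKM in siNC and at 133, 96.8 and 109 RPKM in siQk. The groups overlapped broadly, with a log2 fold change of 0.08 (SE 0.21, 95% interval -0.42 to 0.58, FDR 0.779 by edgeR). The sign turned to -0.12 without the second siNC library and to -0.05 without the first siQk library. Id1 (chr2:152736251-152737410), a classical BMP target, was the lowest member at 0.642, 1.16 and 1.105 RPKM in siNC and 0.700, 0.836 and 0.955 RPKM in siQk. Those levels rest on 34 to 133 tags per library, and the ranges overlapped.

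The summed Id level was 331 ± 18.3 RPKM in siNC and 413 ± 28.6 RPKM in siQk (SD, n = 3 each). Id3 held 64.3% and 65.1% of it, Id2 29.0% and 27.2%, Id4 6.43% and 7.504%, and Id1 0.291% and 0.201%, and for each of these shares the groups overlapped. The ratio of the Id sum to the Hes and Hey sum was 3.997, 3.51 and 4.27 in siNC and 2.70, 2.48 and 2.69 in siQk, with all siQk libraries lower (exact permutation p = 0.1, the smallest possible).

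Ordered by mean RPKM in siNC, the members ran from Id3 and Id2 through Hey1, Hes5, Hes6 and Id4 to Hey2, Hes1 and Id1. Hey1, Hes5, Hes6 and Id4 each overlapped the next in that order, as did Hey2 and Hes1, so their places are not set, except that Id4 was apart from Hey2. In siQk the order was Id3, Id2, Hes5, Hey1, Id4, Hes6, Hey2, Hes1 and Id1. Hes5 had come to overlap Id2 (91.9 to 98.6 against 96.8 to 133 RPKM) and was now apart from Hey1, the next gene down. Id3 was the highest and Id1 the lowest member in all 6 libraries.

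The genes whose TMM-scaled log2 CPM followed a member most closely over the 6 libraries were looked up among 10038 other genes (10039 for Hes1) with an average logCPM over 3, as a description. For Hes5 they were Hnrnpul2 (Pearson r = 0.9985) and Hnrpdl (r = 0.9982), genes of the hnRNP group of RNA-binding proteins, and 103 genes in all had r over 0.98. Since only 6 libraries in a pair of groups enter, any gene with a clean difference between the groups scores high against Hes5. For Hes1 the closest were 5730508B09Rik (r = 0.9925) and Per3 (r = 0.9903), for Id3 Nos1ap and Lysmd3, for Id4 Pgpep1 and Mllt6, and for Id2 Pik3c3 and N6amt2. Hes6 was followed most closely by Dhrs7b and Psma2, and Hey1 by Prickle2 and Nuak1.

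Relatives of the members in the Hes and Hey branch that could be tested fell in siQk. Of 7 such genes 3 were tested, and all 3 fell, with a median log2 fold change of -1.17, while 17.2% of all genes tested were called lower. Hes3, another progenitor Hes gene, was at 2.06, 2.11 and 1.56 RPKM in siNC and at 0.465, 0.555 and 0.307 RPKM in siQk. All siQk libraries were below all siNC libraries, and the log2 fold change was -2.27 (SE 0.27, FDR 0.00182 by edgeR). Within the libraries, the ratio of Hes5 to Hes3 RPKM went from 12.1 ± 1.20 to 230.2 ± 81.3 (SD, n = 3 each). Bhlhe41 (-1.17) and Bhlhe40 (-0.58), repressors known from the circadian clock, fell as well. Hes2, Hes7, Heyl and Helt were too low for the test, and none of them exceeded 0.259 RPKM in any library.

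Of 6 genes for helix-loop-helix factors that pair with or are held back by these proteins, 5 rose in siQk and none fell, with a median log2 fold change of 0.40 against 0.01 over all genes. Among all genes tested, 13.8% were called higher and 17.2% lower. Olig2, the lineage factor of oligodendrocytes, rose by 0.69 on the log2 scale (SE 0.08), and Olig1 by 0.43. The E-protein genes Tcf4, Tcf12 and Tcf3 rose by 0.60, 0.37 and 0.27, and Tcf12 was called in 11 of 18 alternative analyses. The summed RPKM of Tcf3, Tcf4 and Tcf12 per summed Id RPKM was 0.597, 0.591 and 0.542 in siNC and 0.721, 0.683 and 0.671 in siQk, so the E-protein transcripts were higher relative to those of the Id genes in every siQk library (exact permutation p = 0.1, the smallest possible). The count of partners called was 2 without the first siQk library and 3 without the second, and 0 when a fold of 2 was required.

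The list of Groucho family genes gave 5 genes higher and none lower of 6 tested, with a median log2 fold change of 0.74. These are transcript levels by gene family, and repression was not measured. Tle2 was at 6.32, 4.66 and 5.91 RPKM in siNC and at 15.8, 25.5 and 16.3 RPKM in siQk (log2 fold change 1.61, SE 0.22). On the log2 scale Tle6 rose by 1.28 and Tle3 by 1.03, and Aes and Tle1 by 0.44 and 0.38. Aes had the highest level of the list, with means of 140.2 RPKM in siNC and 211.3 RPKM in siQk. Tle4 came next with 44.5 and 56.1 RPKM, and at a log2 fold change of 0.19 Tle4 was not called. Requiring a fold of 2 left 3 of them.

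**Figure D4:**
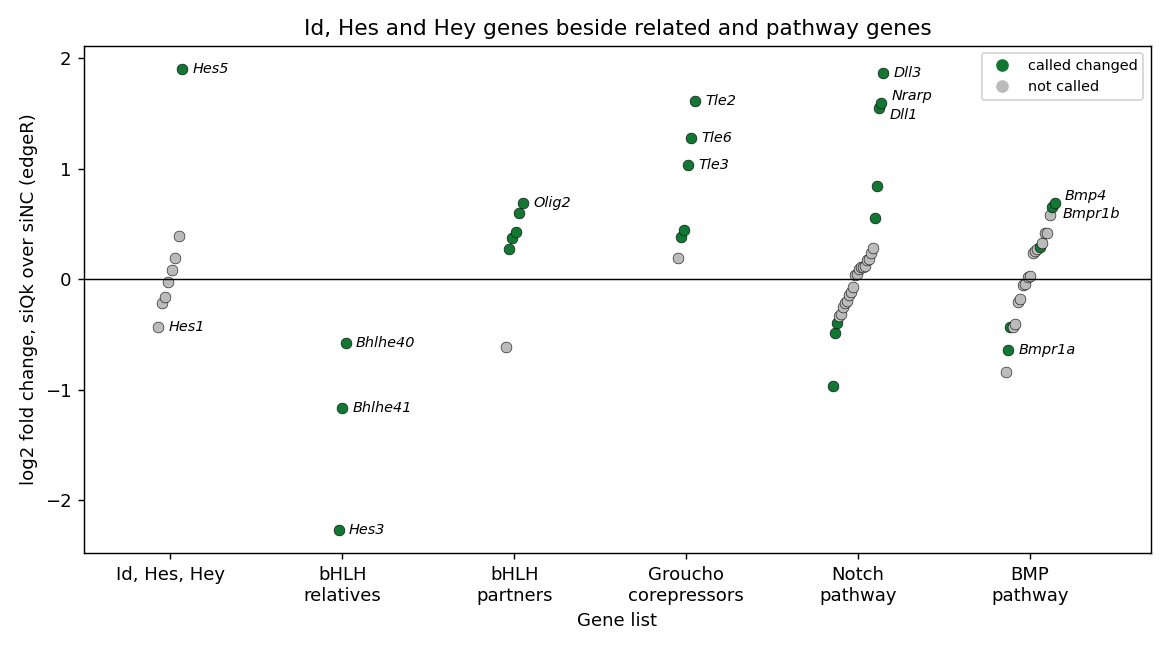
Log2 fold change of siQk over siNC (y axis, edgeR) for each tested gene of the Id, Hes and Hey members and of 5 related lists, with called genes in green. Hes5 at 1.90 stands at the top with Dll3 at 1.86, followed by Tle2 at 1.61, Nrarp at 1.59 and Dll1 at 1.55, while the other members lie between -0.43 and 0.39.

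Of 29 Notch pathway genes 26 were tested, and 8 were called, 5 higher and 3 lower, a count near the 31.0% of all genes. The 3 with the largest changes were Dll3, Nrarp and Dll1, all higher in siQk. Dll1, a Notch ligand, was at 15.5, 19.3 and 15.4 RPKM in siNC and at 53.8, 56.4 and 53.4 RPKM in siQk, a log2 fold change of 1.55 (SE 0.10). Dll3, a divergent ligand that acts within the cell that makes it, rose by 1.86 on the log2 scale (SE 0.19), from 3.81 ± 0.750 to 15.3 ± 1.84 RPKM. Nrarp, a Notch target that dampens the pathway, rose by 1.59 (SE 0.23), from 4.78 ± 1.42 to 16.0 ± 1.51 RPKM (SD, n = 3 each). These 3 genes were picked for their large changes, which are close in size to the 1.90 of Hes5, while the median over the list was 0.07. The other Notch targets among the members, Hes1, Hey1 and Hey2, were not called. A part of the Notch genes in the Hes5 difference was not tested. The Notch pathway count was 5 without the second siQk library, and 3 when a fold of 2 was required.

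The BMP pathway, upstream of the Id genes, had 21 of 24 genes tested, with 3 higher and 2 lower and a median of 0.03. Of all genes tested, 31.0% were called, 13.8% higher and 17.2% lower. The largest called changes were Bmp4, a ligand, at 0.69 (SE 0.16), Bmpr1b, a type I receptor of low level, at 0.65 (SE 0.18), and Bmpr1a, the abundant type I receptor, at -0.64 (SE 0.09). Bmpr1b was called in 12 of 18 alternative analyses. DESeq2 called 9 genes of the BMP list, and none had a fold of 2 with an FDR below 0.05.

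The Quaking proteins are known to bind ACUAAC and ACUAAU in RNA, and 3′UTRs were searched for both on the transcript strand. In the longest annotated 3′UTR (GENCODE M21, GRCm38) Id1 held 1 site, Id4 2 and Hey2 2, all of them ACUAAU, and Id2, Id3, Hes1, Hes5, Hes6 and Hey1 held none. Among all 20834 genes with a 3′UTR of at least 50 bases 33.3% hold such letters, and among 3′UTRs within 10% of its length the share was 18.2% for Hes5, 61.8% for Id4 and 34.5% for Hey2. The sites are shown with the motif in capitals, since the targeted gene encodes the protein known for these letters, and a match is no measured binding. The Id1 transcript searched has 1 exon. Whether its site stays in Id1 transcripts that are spliced was not checked.
Id1, chr2:152736848-152736864, plus strand: gggcgACUAAUaggaaa
Id4, chr13:48263373-48263390, plus strand: agcuuuACUAAUauacca
Id4, chr13:48265998-48266015, plus strand: uccuguACUAAUaaauca
Hey2, chr10:30832660-30832677, minus strand: gacuagACUAAUgcuaca
Hey2, chr10:30832375-30832392, minus strand: uguaucACUAAUuaaaug

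Hes5, the member that rose, had no such letters in its 3′UTR of 696 bases, and neither Id4 nor Hey2, which had them, was called. Introns and coding sequence were not searched, and a part of these letters in the differences was not tested. The annotated Id4 3′UTR of 3093 bases is longer than the 1660 bases of exon over which the authors counted that gene, so that part of it lies outside the counted model.

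The cell type markers were read from fixed lists. For comparison with their counts, 13.8% of all genes tested were called higher and 17.2% lower. Of the 17 myelin and mature oligodendrocyte genes 11 fell and none rose, and their summed level was 3692 to 6502 RPKM in siNC and 1626 to 2426 RPKM in siQk. Mal, Mobp and Tppp had the largest called changes, at -4.73, -4.59 and -3.46. Mobp was uneven in siNC (5.12, 25.2 and 1.61 RPKM), and without the second siNC library it was at -2.98 and not called, and it was not called when any 1 siQk library was left out. That count was 5 without the first siQk library and 5 without the second. The 10 OPC markers summed to 1046 to 1116 RPKM in siNC and 1248 to 1406 RPKM in siQk, with 3 higher and 1 lower. After division by the TMM factors the ranges of this OPC sum overlapped. Pdgfra (82.0 and 97.5 RPKM) and Sox10 (158 and 173 RPKM), which define the lineage, were present in both groups and not called, and Cspg4 rose by 0.93 on the log2 scale. The 8 neural stem cell markers summed to 1167 to 1651 RPKM in siNC and 2774 to 3183 RPKM in siQk. Most of that was Fabp7, the one marker of that list called and named here after its values were seen. The myelin sum was lower in all siQk libraries than in all siNC libraries, and the stem cell sum, mostly Fabp7, was higher. The OPC sum was higher in all siQk libraries only before TMM scaling. The part of these sums in the Hes5 difference was not tested.

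Among markers of other cells, the sums of the astrocyte, neuron and vascular lists overlapped between the groups, while single astrocyte and neuron markers changed. The astrocyte sum was 299.6 to 420.6 RPKM in siNC and 298.2 to 322.1 RPKM in siQk, with 1 of 10 tested genes higher (Sox9) and 4 lower. Gfap, the astrocyte intermediate filament gene, was at 51.4, 54.6 and 101.3 RPKM in siNC and at 9.16, 9.08 and 11.3 RPKM in siQk, a log2 fold change of -2.95 (SE 0.26). Aldh1l1 (-2.21) and the glutamate transporter genes Slc1a3 (-1.38) and Slc1a2 (-1.06) fell as well, whereas S100b and Aldoc, the most abundant of the list, were at 0.01 and 0.03 and not called. The defining marker Gja1 did not exceed 0.0130 RPKM, and Aqp4 did not exceed 0.528 RPKM. The 14 vascular and fibroblast markers, read because vessels are known to express Hey1 and Hey2, summed to 2.92 to 5.21 RPKM and 4.04 to 5.23 RPKM, and Cldn5 was at 0 in all libraries. Of the neuron markers 3 of 9 tested rose: Snap25, a vesicle fusion gene, by 2.64 on the log2 scale (0.751 to 5.18 RPKM), Nefl by 1.61 and Map2, listed as Mtap2, by 0.57 (58.8 to 96.8 RPKM). Tubb3 (123 and 91.9 RPKM) and Elavl3 (34.3 and 25.2 RPKM) were not called, Stmn2 stayed at or under 0.0439 RPKM, and the sum overlapped (200.9 to 281.2 against 212.7 to 261.6 RPKM). The part of these markers in the Hes5 difference was not tested. Of the 10 microglia markers 1 was tested, P2ry12, which fell by 3.16 on the log2 scale, and the list summed to 0.734 to 3.32 RPKM in siNC and 0.343 to 0.413 RPKM in siQk. P2ry12 alone, at 0.669, 3.20 and 1.19 RPKM in siNC, made up most of the siNC sums. The other 9 markers stayed under 1 RPKM in all libraries, and the defining marker Cx3cr1 did not exceed 0.00461 RPKM. Rn45s, a ribosomal RNA gene, took 3.11% of the tags in the first siNC library and 0.169% to 0.389% in the other 5, and without it Hes5 was again the only member called.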

How the data were processed

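mRNA-seq of 6 mOPC libraries was analysed. Per the labels and the study's methods, the authors selected poly-A RNA with a TruSeq kit, used OLego to align the read pairs (mm10) and Quantas to count genes. Their versions and the gene annotation are not given in the sources used here. The authors deposited an estimated count (tag number), an exon length and an RPKM for each gene. RPKM recomputed from tag number, exon length and library total equalled the deposited RPKM. The estimated counts were rounded to whole numbers, and genes with an average logCPM over 0 were tested in edgeR 4.0.16 under R 4.3.3. The model held the group alone, with the limits of the study (P below 0.01, FDR below 0.1). Standard errors come from the F statistic and intervals cover 95%. This fit was first tested on simulated data. Libraries of one group differed by more than sampling noise (chi-square per degree of freedom 36.3 or more), so each counted as 1 replicate. P-values measure the spread between these libraries.

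The members and the gene lists were chosen with earlier results of these data known, so no list was given a p-value. Named genes were the members, Qk, every gene of the bHLH relatives, partners and Groucho lists, the 3 called genes with the largest change of the Notch, BMP and myelin lists, defining markers of cell types, and the 2 genes most correlated with each member. A few genes within this rule are not reported here. P2ry12, Fabp7, the astrocyte and neuron markers named beyond this rule, and the sums, shares and ratios over members, were chosen after values were seen. Alternatives were DESeq2 1.42.0, other edgeR tests, scalings, filters, a stricter call, limma 3.58.1 on log2(RPKM + 0.1), a replicate block and each library left out. Leaving out Rn45s was an alternative chosen after seeing the data. Libraries with the same number did not deviate together (r = -0.053, -0.152 and -0.340), so the numbers were not taken as pairs. With 3 libraries per group this check cannot show that the cultures were unpaired.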

Additional observations from a re-analysis of the deposited data

How the results depend on the processing

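Hes5 was called in all 18 alternatives, with a log2 fold change between 1.78 and 2.06 (1.78 to 2.02 with 1 library left out), and Qk in all 18. Of 144 member values under alternatives, 133 kept their direction and their side of the limits. Library size only, and limma on log2(RPKM + 0.1), moved the median of all genes to 0.16 and called Id3 (0.34 in both). Hes1 was called by DESeq2 (-0.44). The number of members called was 2 under DESeq2, library size only and limma, and 1 to 2 with 1 library left out. With 1 library left out, Id4 ranged from 0.27 to 0.59, being called without the second siNC library, Id2 from -0.12 to 0.24, Hes6 from -0.11 to 0.09, Id3 from 0.13 to 0.25, Hes1 from -0.50 to -0.35, Hey1 from -0.28 to 0.00 and Hey2 from -0.39 to -0.12. Hes6 turned to 0.03 with upper quartile factors and to 0.13 with library size only and limma. Hey1 turned to 0.01 with limma and was -0.02 with library size only. Id2 was -0.12 without siNC replicate 2 and -0.05 without siQk replicate 1, and Hes6 was 0.09 without siNC replicate 1. Without the filter Id1 entered the test and was not called. Requiring an FDR below 0.05 and a fold of 2 left 946 genes, and leaving out 1 library gave 2478 to 3704. Calls split 2234 higher and 1785 lower with upper quartile factors, and 3087 and 1339 with limma. With the replicate block 2796 genes were called, 2701 of them shared with the fit without it, and no member's call changed. Depth limits Id1 most. The causes of these shifts were not tested.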
